A study of Mus musculus with 69 samples.

Results

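Naive CD8+ T cells (Tnv, sorted as CD44 low CD62L high) were compared after culture with IL-15 between mice that had lost different alleles of the STAT5 paralogs. The comparison rests on the gene counts of 6 of the 69 samples of the series. The members were chosen by their labels alone, as the CD8+ Tnv libraries with IL-15, and fall into 3 genotypes of 2 libraries each. WT mice were Stat5a+/+ Stat5b+/+, AAB mice were Stat5a-/- Stat5b+/- and so kept a single Stat5b allele, and BBA mice were Stat5a+/- Stat5b-/- and so kept a single Stat5a allele. The deletions were in the germline, so every cell of an AAB or BBA mouse carried them, the cells that surrounded and selected the T cells included. Cells came from lymph nodes and spleen that had been pooled, and were kept in culture with IL-15 for 12 to 16 hours before polyadenylated RNA was sequenced. The study as a whole profiled CD8+ T cells of several differentiation states and CD4+ T cells of these genotypes with and without cytokines. Its question here was how much of the IL-15 transcriptome depends on either paralog. The labels give a replicate number for each library but do not name the mice. The study's methods describe biological replicates, and its reporting summary counts them as mice per group. P-values measure the spread between these libraries.

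IL-15 is a cytokine of the common gamma chain family that sustains memory CD8+ T cells and NK cells and helps naive CD8+ T cells to survive. Its receptor pairs the IL-2 receptor beta chain with the common gamma chain, and the kinases JAK1 and JAK3 bound to them phosphorylate STAT5A and STAT5B. The phosphorylated STAT5 proteins pair up, enter the nucleus and bind the palindrome TTCNNNGAA. Genes known to be driven by STAT5 in lymphocytes include Cish and the Socs genes, which restrain the receptor in turn, the PIM kinases, the survival factor Bcl2 and the growth regulator Myc.

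The libraries held 7125235 to 16194175 gene counts, with both BBA libraries the shallowest, and 9971 of 24309 genes had enough counts to be tested. CPM values, which scale the counts of all libraries to one normalised total, are given for replicate 1 and then replicate 2. The T cell identity of the sort was seen in every library, but WT replicate 2 stood apart. There 11 genes of the CD4+ lineage summed to 1035 CPM, against 189 to 251 CPM in the other 5 libraries. Within that list Cd4 stood at 242 CPM against 3.08 to 12.1 CPM, and the regulatory T cell factor Foxp3 at 185 CPM against 11.8 to 19.2 CPM. In the same library 4 genes of the CD8+ lineage summed to 1549 CPM against 2268 to 2434 CPM elsewhere. Myeloid markers summed to 142 CPM in BBA replicate 1 and to 55.4 to 78.3 CPM elsewhere. B cell markers summed to 44.5 to 211 CPM, highest in BBA replicate 2, and erythroid genes to at most 2.35 CPM. Fewer cells of a type and less RNA per cell cannot be told apart in such bulk libraries. The tests were also run without WT replicate 2, and calls that it decided are given with and without it.

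The paralog with no intact allele stood below both WT libraries in every mutant library, though Stat5b was still read in BBA. Stat5a (chr11:100859351-100885169, plus strand, GRCm38) stood at 76.7 and 103 CPM in WT, 3.21 and 4.08 in AAB and 40.9 and 46.9 in BBA. AAB thus kept only a trace of Stat5a reads in both libraries, 24.7-fold less than WT (log2 fold change -4.62 ± 0.23 SE, adjusted p = 0.00111). This and all tests that follow are edgeR quasi-likelihood tests with Benjamini-Hochberg adjustment. BBA, with 1 of the 2 Stat5a alleles, read -1.04 ± 0.19 on the log2 scale (adjusted p = 0.0151, lost without BBA replicate 1). Stat5b, its neighbour (chr11:100780731-100850724, minus strand), stood at 268 and 360.1 CPM in WT, 133 and 144 in AAB and 66.6 and 96.2 in BBA. BBA fell 3.86-fold below WT (adjusted p = 0.00452). With no intact Stat5b allele by the labels, its libraries still held 453 and 780 Stat5b counts, a level above their Stat5a also per length, where AAB held 36 and 46 Stat5a counts. Counts per gene do not show where along Stat5b these reads lay. AAB, with 1 Stat5b allele, read -1.18 ± 0.22 (adjusted p = 0.0656; 0.0131 once the replicate number entered as a block). Per length of annotated exons, Stat5b made up 81.8% of the reads of both paralogs in each WT library, 98.2% and 97.8% in AAB and 67.7% and 72.6% in BBA. The summed level of both paralogs per kilobase of exon was 59.1 and 79.5 CPM in WT, 24.4 and 26.6 in AAB and 17.7 and 23.9 in BBA. Both genotypes kept 1 of 4 alleles, and the BBA libraries lay below the AAB libraries without overlap. Because the paralogs are alike in sequence, the counting may have divided some reads between them.

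Loss of both Stat5b alleles and 1 Stat5a allele passed the test for more genes than loss of both Stat5a alleles and 1 Stat5b allele, while few genes passed between these genotypes. BBA differed from WT in 940 of 9971 genes (9.43%), with 690 higher (6.92%) and 250 lower (2.51%). AAB differed from WT in 89 (0.893%), with 50 higher (0.501%) and 39 lower (0.391%). A gene counted as called when its adjusted p was under 0.05 and its change above 1.5-fold. Both comparisons share the WT libraries, so a deviation of WT enters both. Compared directly, AAB and BBA differed in 7 genes (0.0702%), 2 higher in AAB (0.0201%) and 5 lower (0.0501%), although 669 had an unadjusted p under 0.05 and DESeq2 called 65. Without WT replicate 2, which this comparison does not itself contain, there were 18, these 7 included. Without WT replicate 2, BBA differed from WT in 817 genes, of which 523 higher and 176 lower were also called with it. AAB then differed in 55, of which 22 and 16 were also called with it. The AAB calls rested on both AAB libraries, with 0 calls without AAB replicate 1 (825 at an unadjusted p under 0.05) and 2 without AAB replicate 2. Leaving out BBA replicate 1 or 2, which this comparison does not itself contain, gave 176 and 168. The BBA calls fell to 544 without BBA replicate 1, and to 597 and 588 without AAB replicates 1 and 2. A replicate block gave 288 genes for AAB against WT, 152 higher and 136 lower, and 15 for AAB against BBA. For BBA against WT it gave 1166, with 812 higher and 354 lower. The fit of 12 libraries used below, without a block, called 1466 of 10390 genes for BBA against WT with IL-15 and 379 for AAB. The gap between the genotypes in calls thus depended on the fit. The split between directions depended on scaling. With scaling factors taken from all genes before the filter, BBA had 659 genes higher and 1105 lower, with the median of all genes at -0.33. AAB then had 225 higher and 140 lower, with the median at -0.11.

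**Figure D1:**
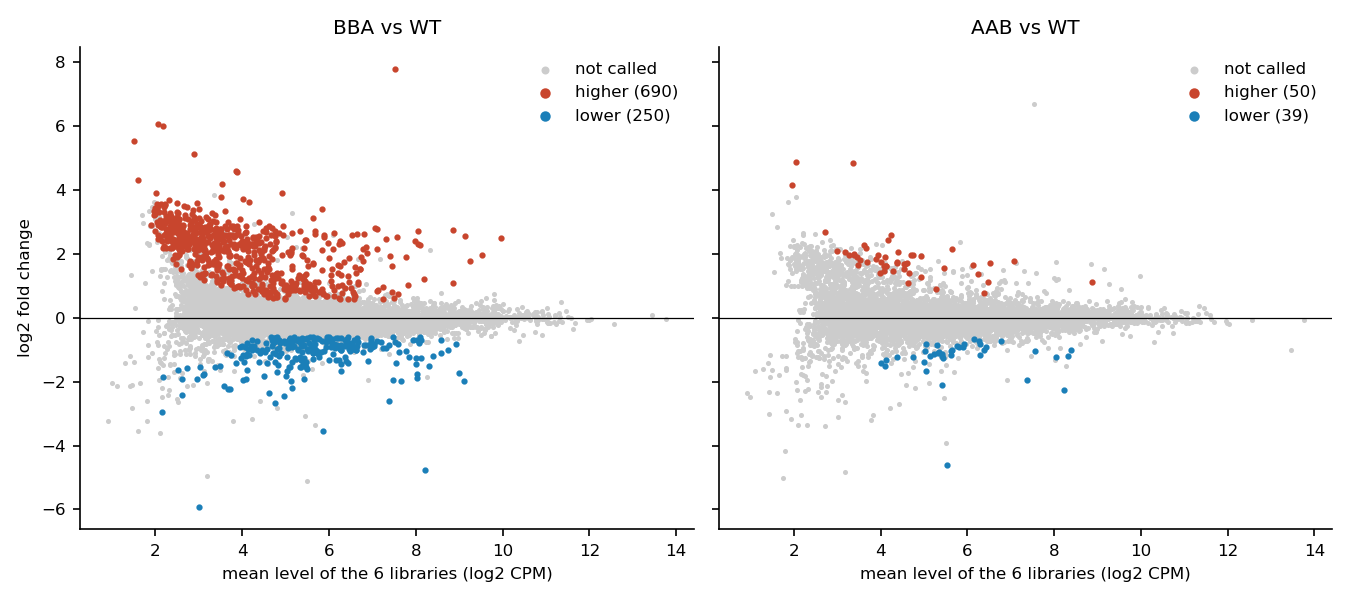
Log2 fold change against WT (vertical axis) by mean log2 CPM of the 6 libraries (horizontal axis) for the 9971 genes tested in Tnv with IL-15, BBA on the left and AAB on the right, with called genes coloured. The 690 genes higher in BBA lie mostly at low levels, whereas the 250 lower genes spread over the whole range.

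Among the inhibitors that STAT5 is known to switch on, Cish and Socs1 fell in BBA, and 2 of 8 tested SOCS and CIS genes were called there. Cish, which encodes the CIS protein that docks on cytokine receptors, stood at 17.6 and 30.1 CPM in WT, 7.14 and 13.4 in AAB and 3.97 and 6.17 in BBA. Both BBA libraries lay below every other library, and AAB lay between BBA and WT without overlap. The change was -2.23 ± 0.43 (SE) in BBA (adjusted p = 0.0185, lost without BBA replicate 1) and -1.22 ± 0.39 in AAB (adjusted p = 0.21; 0.0325 with the replicate block). Socs1, an inhibitor of JAK kinases, stood at 106 and 105 CPM in WT, 63.9 and 67.7 in AAB and 41.00 and 42.9 in BBA, with the 3 genotypes apart. It fell in BBA (-1.33 ± 0.12, adjusted p = 0.00194) and in AAB (-0.68 ± 0.11, adjusted p = 0.0496), and the AAB call was lost without WT replicate 2 (adjusted p = 0.118). Socs2 stood at 9.20 and 10.1 CPM in WT, 2.41 and 3.28 in AAB and 5.44 and 7.03 in BBA, the only inhibitor of these 4 with its lowest libraries in AAB. It passed in neither comparison (adjusted p = 0.363 in BBA and 0.0763 in AAB). Socs3 stood at 226 and 904 CPM in WT, 174 and 222 in AAB and 126 and 189 in BBA, with the value of WT replicate 2 far above the rest. It passed in neither comparison (adjusted p = 0.0939 in BBA, 0.0295 with the replicate block and 0.00336 without WT replicate 1, and 0.278 in AAB).

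Of the 3 PIM kinases, which promote growth and survival, Pim1 and Pim3 fell in BBA. Pim1 stood at 311 and 622 CPM in WT, 182 and 188 in AAB and 112 and 142 in BBA, and the WT libraries differed 2-fold from each other but both exceeded all others. The fall was -1.88 ± 0.31 in BBA (adjusted p = 0.0111, lost without BBA replicate 1), and AAB read -1.33 ± 0.31 (adjusted p = 0.0955; 0.0379 with the replicate block). Pim3 fell by 0.71 in BBA (adjusted p = 0.041), a call lost without WT replicate 2 (adjusted p = 0.147) and in other leave-outs.

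Bcl2, which blocks mitochondrial apoptosis, was among the strongest losses at high level. It stood at 1102 and 688 CPM in WT, 514 and 556 in AAB and 201 and 248 in BBA. The order WT above AAB above BBA held for every library. In BBA it fell 3.98-fold (log2 fold change -1.99 ± 0.25, adjusted p = 0.00501), and in AAB the value was -0.74 ± 0.24 (adjusted p = 0.215). Of 7 tested pro-apoptotic members of the family 0 passed in BBA by edgeR, with 4 at an unadjusted p under 0.05 and 0 by DESeq2. Bcl2 was the only 1 of 3 tested anti-apoptotic members to be called.

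Of 11 tested receptor chains and JAKs of the gamma chain family, 0 were called in BBA by edgeR (2 at an unadjusted p under 0.05, 2 by DESeq2), against 9.43% of all genes. Their median log2 fold change in BBA was -0.05. A list this short cannot show whether its share of calls differs from that of all genes. Il2rb, the beta chain through which IL-15 signals, stood at 223 and 313 CPM in WT, 202 and 305 in AAB and 208 and 275 in BBA, with all genotypes overlapping. Il2ra, the alpha chain of the IL-2 receptor and a marker of regulatory T cells, stood at 5.74 and 43.8 in WT, 12.8 and 8.96 in AAB and 20.3 and 11.7 in BBA, so that its 1 high value was in the library that also held Cd4 and Foxp3. Of 17 cytotoxic genes 6 passed the filter, and in BBA Tnf, described below, was the 1 called lower (4 at an unadjusted p under 0.05; 1 higher and 0 lower without BBA replicate 1). Prf1, encoding perforin, stood at 28.8 and 27.02 CPM in WT, 49.1 and 52.4 in AAB and 34.1 and 47.7 in BBA, with WT below all mutant libraries, and passed in neither comparison (adjusted p = 0.11 in BBA and 0.0747 in AAB). Nkg7, a granule protein, stood at 221 and 112 in WT, 147 and 151 in AAB and 167 and 149 in BBA, with the mutants within the WT range. Gzmb, encoding granzyme B, stood at 1.69 and 2.44 in WT, 0.535 and 0.798 in AAB and 1.18 and 0.370 in BBA, and Ifng, encoding interferon gamma, stood at 0.253 and 0.375 in WT, 0.624 and 0.532 in AAB and 0.588 and 0.617 in BBA. Gzmb and Ifng were under the filter and not tested.

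**Figure D2:**
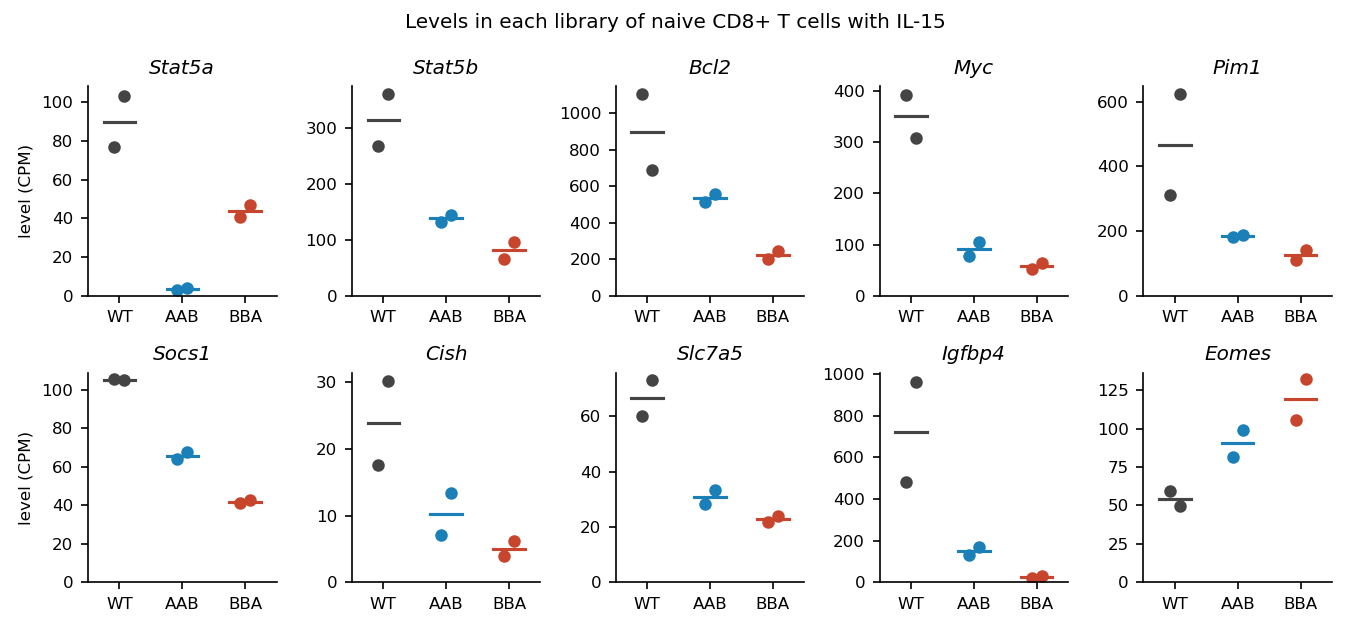
CPM of 10 genes (one panel each, vertical axis) in the 6 Tnv libraries with IL-15, grouped by genotype along the horizontal axis, with each point a library and the bar the mean of 2. Stat5a is nearly lost in AAB, and Bcl2, Myc, Cish and Socs1 step down from WT to AAB to BBA.

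The motif TTCNNNGAA was searched in RefSeq promoter windows (250 bases before to 50 after the first transcribed base, GRCm38.p6). The motif is its own reverse complement, so 1 search covers both strands. It was found in 8.39% of the windows of the tested genes that could be matched, and in 9.55% of all 27025 windows. Genes lower in BBA held it in 20 of 203 windows, 9.85% (95% exact interval 6.12 to 14.8%), an interval that includes the share of all tested genes. Genes lower in AAB held it in 1 of 33, 3.03%. Shown with the motif in capitals are the named genes whose windows held it. Cish, Tnfrsf18, Slc7a1, Shmt2, Smc6 and Igtp were lower in BBA. Gm12250 lies close to Igtp on chromosome 11 and shared its pattern over cultures, and Socs3, Gzmb and Ifng were not called in Tnv. The windows of Bcl2, Socs1 and Pim1 did not hold these letters. The windows of the genes higher in BBA were matched for 74.8% of genes, under the 80% set for such a check, which is therefore void. A match is a description of letters and not a site of binding.
Cish (chr9:107296654-107296683, plus strand, first transcribed bases): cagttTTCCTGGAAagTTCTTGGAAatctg
Tnfrsf18 (chr4:156026198-156026256, plus strand, 99 bases before the start): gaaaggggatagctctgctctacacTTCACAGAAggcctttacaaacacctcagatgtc
Slc7a1 (chr5:148392928-148392986, minus strand, 146 bases before the start): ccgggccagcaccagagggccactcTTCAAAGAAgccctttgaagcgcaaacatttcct
Shmt2 (chr10:127522466-127522524, minus strand, 55 bases before the start): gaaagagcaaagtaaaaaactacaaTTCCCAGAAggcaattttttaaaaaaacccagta
Smc6 (chr12:11265788-11265846, plus strand, 73 bases before the start): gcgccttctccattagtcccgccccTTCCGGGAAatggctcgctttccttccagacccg
Igtp (chr11:58199486-58199544, plus strand, 45 bases before the start): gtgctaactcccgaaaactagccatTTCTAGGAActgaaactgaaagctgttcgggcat
Gm12250 (chr11:58183757-58183815, plus strand, 61 bases before the start): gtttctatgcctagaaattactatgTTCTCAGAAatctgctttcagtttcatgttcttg
Socs3 (chr11:117969487-117969545, minus strand, 154 bases before the start): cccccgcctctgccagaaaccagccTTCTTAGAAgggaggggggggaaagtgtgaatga
Ifng (chr10:118440796-118440830, plus strand, 249 bases before the start): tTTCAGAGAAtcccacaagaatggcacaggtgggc
Gzmb (chr14:56262285-56262302, minus strand, first transcribed bases): gagttTTCATAGAAagca
Cish was the only one of these with the motif 2 times in its window. The distances run from the motif to the first transcribed base, and the coordinates are those of the printed bases.

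Myc fell in both genotypes, and so did part of the biosynthetic genes that accompany growth. Myc, a transcription factor that drives ribosome production and metabolism, stood at 392 and 308 CPM in WT, 76.8 and 106 in AAB and 52.02 and 63.5 in BBA. Every AAB and BBA library lay below both WT libraries, and BBA lay below AAB. Myc fell 6.05-fold in BBA (log2 fold change -2.60 ± 0.22, adjusted p = 0.00178) and 3.83-fold in AAB (-1.94 ± 0.21, adjusted p = 0.0267). It was the only one of 10 tested members of the MYC network to be called in either comparison.

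Ribosome biogenesis was the list with the most falls. In BBA 15 of 29 tested members were lower and 1, Nip7, was higher, against 2.51% and 6.92% of all genes. The median log2 fold change of the list was -0.78, with 28 members below 0, and that of all genes was -0.01. In AAB 6 were lower (13 with the replicate block), with a median of -0.61. Leaving out 1 library at a time left 9 to 14 lower in BBA, with the fewest without WT replicate 1, and 0 to 6 in AAB, with 0 without either AAB library or WT replicate 1. Mybbp1a, a nucleolar protein that binds MYB, stood at 330.0 and 278 CPM in WT, 139 and 154 in AAB and 107 and 119 in BBA, with both mutant genotypes below WT (-1.43 ± 0.15 in BBA, adjusted p = 0.00372; -1.05 ± 0.15 in AAB, adjusted p = 0.0355). Rrp12, needed to process ribosomal RNA, stood at 64.4 and 56.3 CPM in WT, 25.4 and 29.1 in AAB and 23.8 and 25.8 in BBA, and fell in both (-1.28 and -1.15, adjusted p = 0.00458 and 0.0292). Polr1a, the largest subunit of RNA polymerase I, stood at 109 and 109.9 in WT, 63.9 and 67.7 in AAB and 54.7 and 55.5 in BBA, and Nolc1, a nucleolar phosphoprotein, at 118 and 107 in WT, 66.5 and 62.2 in AAB and 57.8 and 54.6 in BBA. All 4 were called in both genotypes, and in none did a mutant library overlap WT. Without WT replicate 2, Mybbp1a and Rrp12 kept their AAB call (adjusted p = 0.0465 for each), and Polr1a and Nolc1 lost it (adjusted p = 0.0954 and 0.0657). Of the ribosome's own proteins, 0 of 75 cytosolic members passed in BBA by edgeR (0 at an unadjusted p under 0.05, 0 by DESeq2), with a median of 0.03. Of 77 mitochondrial members Mrps2 alone was called, a call lost in all 6 leave-outs of 1 library.

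Nucleotide, serine and one-carbon synthesis came next, with 9 of 26 tested members lower in BBA and 1, Tyms, higher (median -0.42), and 1 lower in AAB (median -0.32; 9 with the replicate block, 0 without WT replicate 2). Cad, which catalyses the first steps of pyrimidine synthesis, stood at 207 and 176 CPM in WT, 84.1 and 105 in AAB and 62.6 and 86.9 in BBA, with BBA below AAB in replicate means but with AAB replicate 1 just under BBA replicate 2. It fell by 1.35 in BBA (adjusted p = 0.00746). Mthfd1, an enzyme of folate metabolism, stood at 68.7 and 58.4 in WT, 27.7 and 32.7 in AAB and 30.7 and 23.8 in BBA, and fell in both (-1.22 ± 0.18 in BBA, adjusted p = 0.00779; -1.07 ± 0.18 in AAB, adjusted p = 0.0496, or 0.0573 without WT replicate 2). Shmt2, the mitochondrial serine hydroxymethyltransferase, stood at 141 and 121 in WT, 71.3 and 87.7 in AAB and 62.2 and 70.04 in BBA, and fell by 0.99 in BBA (adjusted p = 0.00874, lost without BBA replicate 1). Gart, a purine synthesis enzyme, fell by 1.01.

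Transporters of amino acids and enzymes of polyamine synthesis were also among the genes that fell. Slc7a5, the light chain of the LAT1 transporter of large neutral amino acids, stood at 60.01 and 73.2 CPM in WT, 28.2 and 33.3 in AAB and 21.7 and 23.9 in BBA. All 4 mutant libraries lay below both WT libraries, and the change was -1.54 ± 0.17 in BBA (adjusted p = 0.00396) and -1.12 ± 0.16 in AAB (adjusted p = 0.0373, lost without WT replicate 2 at 0.0773). Slc7a1, a transporter of arginine and lysine, stood at 114 and 101 CPM in WT, 69.5 and 71.4 in AAB and 52.6 and 54.3 in BBA, and fell by 1.01 in BBA (adjusted p = 0.00458). These were the 2 of 7 tested transporters that fell in BBA. Odc1 and Srm, enzymes of polyamine synthesis, were the 2 of 5 members that fell in BBA. Srm, the spermidine synthase, stood at 62.7 and 53.3 in WT, 19.98 and 24.7 in AAB and 15.7 and 16.8 in BBA, and fell in both (-1.83 ± 0.17 in BBA, adjusted p = 0.00262; -1.38 ± 0.17 in AAB, adjusted p = 0.0275). Odc1, which makes putrescine, stood at 63.2 and 114 in WT, 32.6 and 42.4 in AAB and 39.2 and 37.4 in BBA, and fell by 1.22 in BBA (adjusted p = 0.0359), a call lost without WT replicate 2 and under every other leave-out but that of WT replicate 1.

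The other growth lists held smaller shares of called genes. Of 30 translation factors 2 fell in BBA (5 with the replicate block), Eif5a and Eif3b (the latter lost without BBA replicate 1), with 28 below 0 and a median of -0.27. Eif5a, the factor that carries hypusine made from spermidine, stood at 606 and 524 CPM in WT, 309 and 335 in AAB and 270.1 and 259 in BBA, and fell by 1.09 (adjusted p = 0.00609). Of 10 chaperonin genes Cct3 and Hspd1 fell in BBA (median -0.48), but Hspd1 lost its call in 5 of the 6 leave-outs, that of WT replicate 2 being the exception. Cct3, a subunit of the cytosolic chaperonin that folds actin and tubulin, stood at 246 and 204 in WT, 136 and 139 in AAB and 129 and 107 in BBA (adjusted p = 0.0109). All 20 tested aminoacyl-tRNA synthetases read below 0 (median -0.34), yet 0 passed by edgeR (9 at an unadjusted p under 0.05, 1 by DESeq2). Tpi1 was the 1 of 17 glycolysis genes that fell, at 66.7 and 51.1 in WT, 29.8 and 27.2 in AAB and 28.8 and 20.3 in BBA (adjusted p = 0.0112), and Fnip1 the 1 of 14 mTORC1 regulators, with a call lost in the same 5 leave-outs as that of Hspd1. Fasn and Cyp51 were the 2 of 24 genes of fatty acid and cholesterol synthesis that fell (4 with the replicate block), and both calls were lost without WT replicate 2. Leaving out another library also ended the Cyp51 call in all cases and the Fasn call in 3 of 5. Of 73 subunits of oxidative phosphorylation 0 passed in BBA by edgeR (2 at an unadjusted p under 0.05, 0 by DESeq2), with a median of 0.05.

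**Figure D3:**
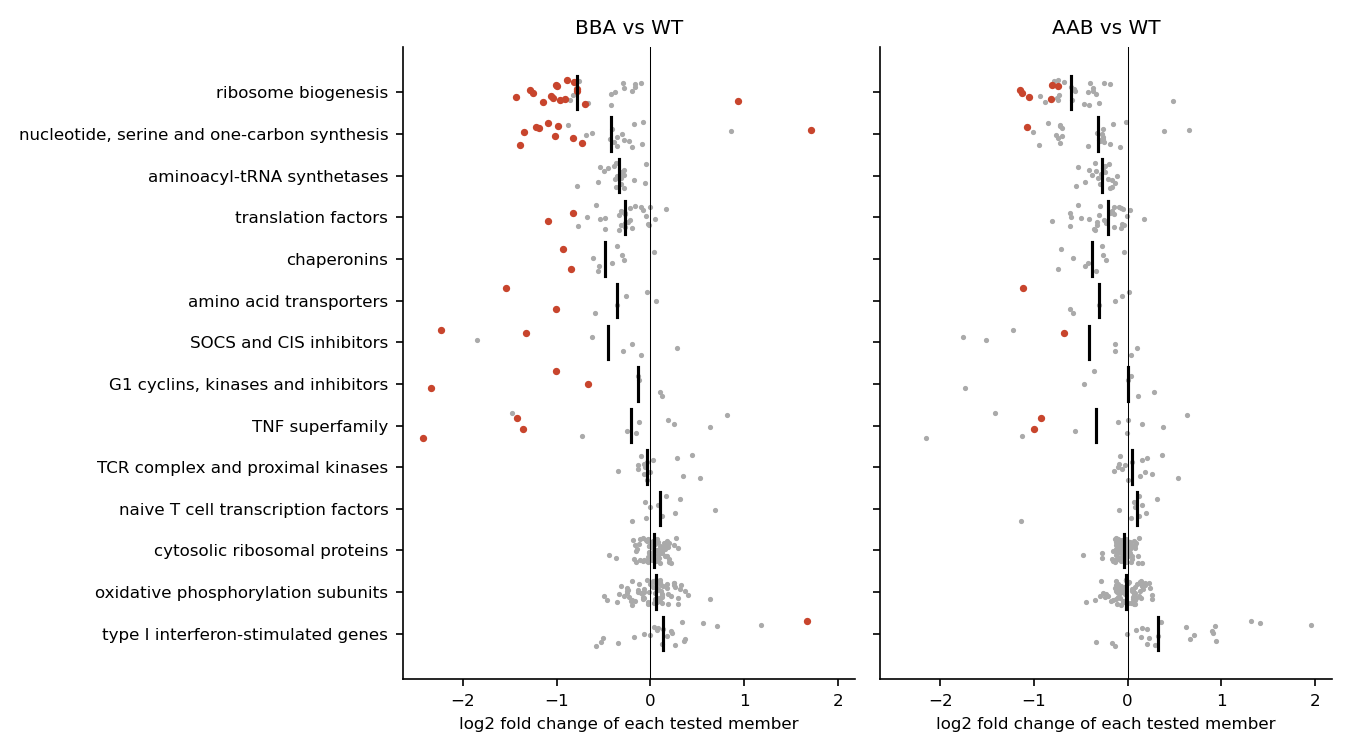
Log2 fold change against WT (horizontal axis) of each tested member of 14 gene lists (vertical axis), BBA on the left and AAB on the right, with called members in red and the list's median as a bar. Members of ribosome biogenesis lie almost wholly below 0 in both panels, with 15 and 6 called lower, while cytosolic ribosomal proteins centre on 0.

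The cell cycle genes that were called went in both directions. Of 7 tested G1 cyclins, kinases and inhibitors 3 fell in BBA, against 2.51% of all genes. Of 6 tested mitotic genes 2 were higher, against 6.92% of all genes. Cdk6, a kinase that pairs with D cyclins to leave G1, stood at 59.8 and 39.4 CPM in WT, 10.3 and 19.4 in AAB and 9.11 and 10.4 in BBA, and fell by 2.34 (adjusted p = 0.00729), with AAB at -1.73 (adjusted p = 0.0666). Ccnd2, a D cyclin, stood at 654 and 465 in WT, 404 and 471 in AAB and 247 and 309 in BBA, and fell by 1.01 (adjusted p = 0.0278), and Cdk4 fell by 0.66 (adjusted p = 0.0198). Both of these calls were lost in most leave-outs, that of BBA replicate 1 included, although not without WT replicate 2. Of 6 mitotic genes Birc5 (survivin) and Kif11 (a spindle motor) were higher in BBA, at 3.46 and 6.13 in WT, 9.54 and 8.78 in AAB and 18.1 and 15.4 in BBA for Birc5 and 3.29 and 7.38 in WT, 8.21 and 10.1 in AAB and 19.8 and 15.7 in BBA for Kif11 (adjusted p = 0.0171 and 0.0375). They were at low levels in all 6 libraries, 0 mitotic genes were called without BBA replicate 1, Kif11 lost its call in every leave-out but that of WT replicate 2, and the median of the list moved from 0.28 to -0.03 with scaling from all genes. Of 14 DNA replication genes 0 passed by edgeR (2 at an unadjusted p under 0.05, 0 by DESeq2).

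Of 12 tested TNF superfamily genes, a family whose members carry signals between activated T cells and other cells, 3 fell in BBA and 2 in AAB (1 without WT replicate 2), against 2.51% and 0.391% of all genes. The list's medians were -0.20 and -0.33, with 8 of the 12 below 0 in each genotype. Tnfsf8 (CD30 ligand) stood at 145 and 120.1 CPM in WT, 64.3 and 68.4 in AAB and 52.8 and 50.3 in BBA, and all 4 mutant libraries lay below WT (-1.36 ± 0.13 in BBA, adjusted p = 0.00299; -0.997 ± 0.13 in AAB, adjusted p = 0.0324). Tnfrsf18 (GITR) stood at 138 and 135 CPM in WT, 63.7 and 80.1 in AAB and 53.8 and 47.97 in BBA, and fell in both (-1.42 in BBA and -0.92 in AAB, adjusted p = 0.0036 and 0.0417, the latter 0.0722 without WT replicate 2). Regulatory T cells carry much Tnfrsf18 and CD4+ cells much Tnfsf8. Neither was higher in WT replicate 2, where CD8+ lineage genes were lower, than in WT replicate 1. The part of CD4+ cells in these levels was not tested. Tnf, the inflammatory cytokine, stood at 15.7 and 10.5 in WT, 1.96 and 3.90 in AAB and 2.79 and 2.096 in BBA, and fell by 2.42 in BBA (adjusted p = 0.0209, lost without either BBA library or WT replicate 1). Osm, encoding oncostatin M of the IL-6 family, stood at 28.8 and 30.6 in WT, 10.7 and 11.6 in AAB and 8.38 and 7.15 in BBA, and fell in both (-1.94 ± 0.20 in BBA, adjusted p = 0.0036; -1.41 ± 0.19 in AAB, adjusted p = 0.0324, 0.0722 without WT replicate 2).

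Factors of T cell state were called in few cases. Eomes, a T-box factor of memory CD8+ T cells and NK cells, stood at 59.2 and 49.6 CPM in WT, 81.8 and 98.9 in AAB and 106 and 132 in BBA. BBA lay above AAB and AAB above WT in every library, and the rise was 1.13 ± 0.17 in BBA (adjusted p = 0.00785), with AAB at 0.73 ± 0.17 (adjusted p = 0.0952). It was the only call of 10 effector and memory factors, which became 4 without WT replicate 2. Among 13 homing receptors Cx3cr1 and Ccr9 were higher in BBA, and 4 were higher and 1 lower without WT replicate 2. Cx3cr1, the fractalkine receptor of effector cells, stood at 2.87 and 3.88 in WT, 9.99 and 11.4 in AAB and 18.96 and 19.7 in BBA, and rose in BBA (2.51 ± 0.27, adjusted p = 0.00396) and in AAB (1.65 ± 0.27, adjusted p = 0.0496, or 0.0608 without WT replicate 2). Ccr9, a gut and thymus homing receptor, stood at 71.9 and 41.5 in WT, 99.3 and 92.6 in AAB and 159.6 and 165 in BBA, and rose by 1.52 in BBA (adjusted p = 0.00892). Beside these, 8 markers of antigen-experienced cells, 4 of them tested, summed to 296 and 440.4 CPM in WT and to 366 and 463 CPM in BBA. Most of each sum was Il2rb, at 223 and 313 in WT and 208 and 275 in BBA. Cd44 stood at 7.26 and 43.3 in WT and 22.04 and 18.4 in BBA, and Cxcr3 at 4.39 and 23.01 in WT and 19.4 and 29.1 in BBA. The higher WT value of each was in WT replicate 2, and the part of such cells was not tested. Of 10 naive T cell factors 0 passed in BBA by edgeR (0 at an unadjusted p under 0.05, 0 by DESeq2), and 2 were higher without WT replicate 2. Of 15 genes of the T cell receptor complex 0 passed (1 at an unadjusted p under 0.05, 0 by DESeq2).

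Of all genes, 6.92% were called higher and 2.51% lower in BBA, and 2243 of 9971 had an unadjusted p under 0.05 there (1409 in AAB). Among 23 type I interferon genes 5 had such a p in BBA (median log2 fold change 0.13) and 9 in AAB (0.33). Among 15 interferon-induced GTPases it was 9 in BBA (-0.49) and 6 in AAB (-0.29). The calls in BBA were as follows. Ifit1, an antiviral RNA-binding protein, was the 1 of 23 type I interferon genes called in BBA, at 4.73 and 3.63 CPM in WT, 8.21 and 12.6 in AAB and 11.8 and 14.7 in BBA, and the call was lost without WT replicate 2 and in 3 other leave-outs. Of 15 interferon-induced GTPases, which attack the membranes around microbes, Igtp was lower and Gbp8 higher (3 lower with the replicate block). Igtp stood at 217 and 173 in WT, 122 and 134 in AAB and 121 and 109 in BBA, and fell by 0.76 in BBA (adjusted p = 0.0233, lost in 5 of the 6 leave-outs, that of WT replicate 2 being the exception). Gbp8 stood at 51.6 and 40.96 in WT, 67.4 and 60.7 in AAB and 75.8 and 72.995 in BBA (0.69 ± 0.15, adjusted p = 0.0302), and its call was lost without WT replicate 2 (adjusted p = 0.166) and in every other leave-out but that of WT replicate 1.

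Beyond these lists, the largest falls in BBA were of Gpr34 and Igfbp4. Igfbp4, a binding protein of insulin-like growth factors, stood at 479 and 960.1 CPM in WT, 131 and 168 in AAB and 22.9 and 29.6 in BBA. The genotypes were apart in every library, with a fall of 27.3-fold in BBA (log2 fold change -4.77 ± 0.38, adjusted p = 0.00162) and 4.81-fold in AAB (-2.27 ± 0.33, adjusted p = 0.0373). Its gene lies 1.74 Mb from Stat5b on chromosome 11, and the part of linkage to the targeted alleles was not tested. Gpr34, a receptor for lysophosphatidylserine, stood at 28.9 and 13.9 in WT, 3.39 and 1.51 in AAB and 0.588 and 0.123 in BBA, and fell 60.9-fold in BBA (adjusted p = 0.00538), with AAB at -3.12 ± 0.57 (adjusted p = 0.0656). Ecm1, a secreted matrix protein, stood at 35.4 and 71.9 in WT, 19.7 and 17.4 in AAB and 7.35 and 9.62 in BBA (adjusted p = 0.00561 in BBA), and Ppic, the cyclophilin C gene, at 69.04 and 44.6 in WT, 24.8 and 28.9 in AAB and 13.4 and 7.64 in BBA (adjusted p = 0.00517).

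The largest rises in BBA began from very low levels. Gm8909, in the MHC region of chromosome 17 where near-identical genes can divide reads, stood at 1.43 and 1.88 CPM in WT, 1.69 and 1.60 in AAB and 29.5 and 50.8 in BBA. Rab6b, a small GTPase of Golgi traffic, stood at 1.10 and 2.19 in WT, 2.498 and 3.10 in AAB and 39.2 and 40.7 in BBA. BBA was far higher than WT for both (log2 fold change 4.58 ± 0.35, adjusted p = 0.00162, and 4.56 ± 0.34, adjusted p = 0.00162). The AAB libraries lay within the WT range for Gm8909 and above both WT libraries for Rab6b (0.73 ± 0.35, adjusted p = 0.422). Camk2b, a subunit of a calcium-dependent kinase, stood at 1.01 and 1.88 in WT, 6.51 and 5.59 in AAB and 22.9 and 31.1 in BBA, and Slc6a19, a neutral amino acid transporter, at 5.32 and 3.94 in WT, 20.96 and 14.5 in AAB and 87.6 and 49.2 in BBA. Both stepped from WT to AAB to BBA, with AAB at 2.03 and 1.95 on the log2 scale (adjusted p = 0.0632 and 0.0609). Pcsk1, a prohormone convertase, stood at 0.0844 and 1.001 in WT, 1.25 and 0.887 in AAB and 19.3 and 21.9 in BBA, and was higher in BBA (adjusted p = 0.00664). Igj, the joining chain of secreted antibodies, stood at 1.52 and 2.001 in WT, 13.5 and 2.22 in AAB and 31.9 and 17.8 in BBA (adjusted p = 0.0258, lost without BBA replicate 1 or WT replicate 1), beside B cell markers that summed to 106 and 211 CPM in BBA and to 44.5 and 132 CPM in WT, and their part in it was not tested. Otog, encoding the inner ear protein otogelin, stood at 0.844 and 2.38 in WT, 3.39 and 350.3 in AAB and 504 and 249 in BBA, with 1 AAB library at the WT level and the other at that of BBA, and its call (7.79 ± 1.93, adjusted p = 0.0466) was lost without any 1 of the WT or BBA libraries.

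The genes higher in AAB were, for the most part, higher still in BBA. Car2, carbonic anhydrase II, stood at 2.87 and 2.81 CPM in WT, 18.6 and 12.5 in AAB and 37.8 and 33.05 in BBA, and rose by 2.45 in AAB (adjusted p = 0.0267) and 3.63 in BBA (adjusted p = 0.00162). Dcc, a netrin receptor, stood at 2.28 and 2.31 in WT, 11.8 and 10.7 in AAB and 22.6 and 23.7 in BBA, and rose by 2.29 and 3.33. These genes and Sox7, a transcription factor at 1.10 and 1.001 in WT, 7.40 and 6.30 in AAB and 13.4 and 10.2 in BBA, stepped up from WT to AAB to BBA in every library, and Sox7 lost its AAB call without WT replicate 2 (adjusted p = 0.0665). Rnf157, a ubiquitin ligase, stood at 2.28 and 6.44 in WT, 23.3 and 29.9 in AAB and 23.4 and 28.1 in BBA, alike in both mutant genotypes (2.58 in AAB and 2.53 in BBA). Capn11, a calpain protease, was the exception, at 0.338 and 1.44 CPM in WT, 18.2 and 36.4 in AAB and 2.20 and 3.58 in BBA. It rose by 4.86 in AAB (adjusted p = 0.0297), where BBA read 1.63 (adjusted p = 0.2), and the difference of AAB from BBA did not pass (adjusted p = 0.295). Over the 50 genes higher in AAB the median log2 fold change was 1.75 in AAB and 2.66 in BBA, and over the 39 lower genes -1.13 and -1.36. Of the 50 higher genes, 38 (76%) had a WT mean under 10 CPM, against 13.8% of all tested genes. BBA replicate 1 was the highest library for 33 of them. The part in these rises of the low-level reads described below was not tested.

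Among the genes lower in AAB, Slc30a4, which moves zinc into vesicles, stood at 102 and 68.8 CPM in WT, 18.3 and 21.1 in AAB and 29.4 and 16.2 in BBA, and fell in both (-2.12 in AAB and -1.91 in BBA, adjusted p = 0.0373 and 0.00922). Atp10a, a phospholipid-transporting ATPase, stood at 60.9 and 60.3 in WT, 18.5 and 20.04 in AAB and 18.96 and 18.99 in BBA, with all 4 mutant libraries close together. It fell in both (-1.65 in AAB and -1.67 in BBA, adjusted p = 0.0176 and 0.00162). Ralgds, which activates Ral GTPases, stood at 31.1 and 32.4 in WT, 10.4 and 11.9 in AAB and 8.38 and 8.51 in BBA, and fell in both (-1.51 and -1.91), with an AAB call lost without WT replicate 2 (adjusted p = 0.0558). As stated above, no AAB call survived the loss of AAB replicate 1.

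Of the 7 genes called between AAB and BBA, Stat5a was the one that the genotypes themselves set (-3.59 ± 0.23, adjusted p = 0.00643). Smc6, a subunit of a complex that repairs DNA, stood at 670.3 and 552 CPM in WT, 659 and 795 in AAB and 187 and 184 in BBA. WT and AAB overlapped and BBA lay far below (1.97 ± 0.18 for AAB against BBA, adjusted p = 0.0156; -1.72 ± 0.18 for BBA against WT, adjusted p = 0.0036). Gm6548, annotated as a processed pseudogene whose reads may belong to its parent gene, stood at 98.1 and 109 in WT, 77.2 and 44.8 in AAB and 9.70 and 8.14 in BBA, and was the other gene higher in AAB (adjusted p = 0.0289). Mid1, a ubiquitin ligase of microtubules, stood at 43.97 and 42.8 in WT, 51.6 and 50.7 in AAB and 143 and 126 in BBA, and Pydc3, a pyrin-domain gene, at 41.6 and 27.6 in WT, 60.8 and 49.3 in AAB and 209.6 and 212 in BBA, both higher in BBA than in AAB (adjusted p = 0.014 and 0.0341). Gm8909 and Rab6b, given above, were the remaining ones. In each of these but Stat5a, AAB lay nearer to WT than to BBA. Without AAB replicate 1 there were 0 calls (319 at an unadjusted p under 0.05), without AAB replicate 2 there was 1, and without BBA replicate 2 there were 42.

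The genes higher in BBA were for the most part near silent in WT. Of the 690, 466 (67.5%) had a WT mean under 10 CPM, against 13.8% of all tested genes, and 16.5% of the 2710 genes with a mean under 20 CPM over the libraries were called higher. The filter in part sets these shares. It kept genes with any 1 library above a normalised count of 87.4, so a gene near silent in WT was tested only if a mutant library was high. Relative to the WT mean, their median level was 0.953 and 1.05 in the WT libraries, 2.15 and 2.42 in AAB and 5.68 and 3.46 in BBA, and 548 of them were highest in BBA replicate 1. Reads in gene families not used by lymphocytes were likewise fewest in WT replicate 1 and most abundant in BBA replicate 1. Over 1472 genes of the olfactory, vomeronasal, taste, trace amine and keratin-associated families, chosen after the data had been seen, summed levels were 23.3 and 51.8 CPM in WT, 76.98 and 162 in AAB and 511 and 120.3 in BBA. The share of these genes with a count was lowest in WT replicate 1 (13.04%) and highest in BBA replicate 1 (73.98%). Reads at the rate of these families per exon length were also subtracted from every gene. They were expected to make up 0.0425% of counts in WT replicate 1 and 0.916% in BBA replicate 1. BBA then differed from WT in 938 genes, of which 682 higher and 246 lower were among the calls without the subtraction. Because so few reads were taken off, the calls that remained do not decide the part of such reads. That part in the calls at low level was not tested. The 250 lower genes had a median WT level of 66.6 CPM, and stood at 0.515 and 0.513 of the WT mean in BBA and 0.609 and 0.629 in AAB.

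**Figure D4:**
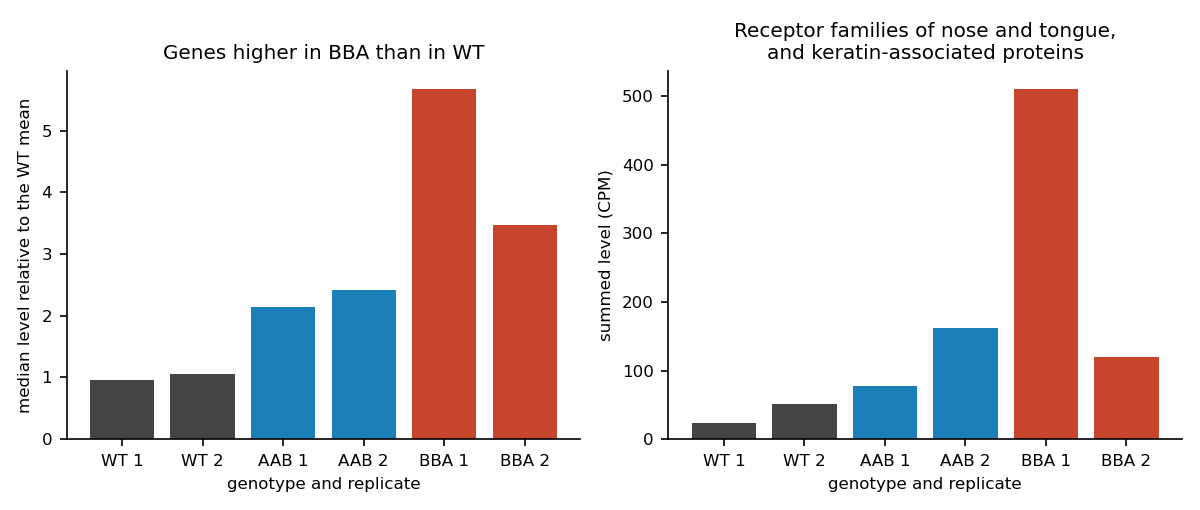
Left, median level of the 690 genes higher in BBA relative to the WT mean (vertical axis) in each library; right, summed CPM of 1472 genes of olfactory and similar families in the same libraries. Both are lowest in WT replicate 1 and highest in BBA replicate 1, at 5.68 times the WT mean and 511 CPM.

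These differences were set against the 6 Tnv libraries of the same genotypes without cytokine. This took 1 fit of 12 libraries and 10390 genes with a term for the difference between cultures. The labels give no culture time for the libraries without cytokine. The study's methods describe cells taken directly ex vivo or cultured with cytokine. Effects of IL-15 and of time in culture therefore cannot be told apart, and the word culture below names either condition. The genotype effect differed between cultures for 251 genes in BBA (2.42%; 165 higher and 86 lower with IL-15 relative to no cytokine; 650 with replicate blocks) and for 33 in AAB (0.318%; 8 and 25; 116 with replicate blocks). Without WT replicate 2 of the IL-15 culture 221 were called in BBA and 0 in AAB (985 at an unadjusted p under 0.05), and with all libraries DESeq2 called 126 in AAB. Of the 250 genes lower in BBA with IL-15, 70 were among these calls. The median log2 fold change over all 250 was -0.25 without cytokine against -0.96 with it, a gap that the choice of genes by their call with IL-15 itself favours, here and in the sets that follow. For the 690 higher genes the medians were 0.43 and 2.23, and 127 were called. For the 39 genes lower in AAB they were -0.09 and -1.11, and 19 were called, and for the 50 higher in AAB they were 0.24 and 1.77, and 3 were called.

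Myc was at similar levels in all genotypes without cytokine, at 162 and 227 CPM in WT, 129 and 171 in AAB and 149 and 171 in BBA, and at 377 and 294 in WT, 74.7 and 103 in AAB and 49.7 and 61.8 in BBA with IL-15. Both WT libraries with IL-15 lay above those without it, though the response did not pass (log2 fold change 0.79, adjusted p = 0.0515), while BBA fell (-1.52, adjusted p = 0.000982). The difference between these responses was -2.30 ± 0.32 (adjusted p = 0.00896). In AAB the difference of -1.54 ± 0.31 did not pass (adjusted p = 0.0964). Slc7a5 stood at 79.2 and 77.9 in WT, 90.1 and 84.4 in AAB and 69.7 and 66.7 in BBA without cytokine and at 57.7 and 70.03 in WT, 27.4 and 32.3 in AAB and 20.8 and 23.3 in BBA with IL-15. No difference between genotypes passed in the first culture, and both mutants were lower in the second (difference -1.33 ± 0.17 in BBA, adjusted p = 0.00839, and -1.25 ± 0.17 in AAB, adjusted p = 0.0366). Srm and Cct3 were called in both genotypes in the same direction (-1.35 and -1.32 for Srm, -1.27 and -1.002 for Cct3), and Socs1 in BBA (-1.34 ± 0.20, adjusted p = 0.00993).

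Bcl2 behaved otherwise. It stood at 378 and 334 CPM in WT, 253 and 182 in AAB and 154 and 109 in BBA without cytokine and at 1061 and 658 in WT, 499.5 and 539.9 in AAB and 193 and 242 in BBA with IL-15. BBA was already lower without cytokine (-1.44, adjusted p = 0.0191). Bcl2 rose with IL-15 in every genotype (1.27 in WT, 1.26 in AAB and 0.73 in BBA; adjusted p = 0.0126, 0.00582 and 0.0496). The difference between cultures did not pass (-0.54 ± 0.35, adjusted p = 0.453). Cish likewise was lower in BBA without cytokine (-2.07, adjusted p = 0.0212), and so were Igfbp4 (-3.64) and Smc6 (-2.01). Gm8909 (4.18) and Rab6b (4.47) were higher there. None of these 5 passed for a difference between cultures in BBA, with adjusted p from 0.169 to 0.952.

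Gm12250, annotated as a processed pseudogene of the interferon-induced GTPase cluster, and Igtp beside it changed direction between cultures. Gm12250 stood at 60.3 and 58.95 CPM in WT, 110.5 and 93.7 in AAB and 139 and 102 in BBA without cytokine and 39.1 and 34.8 in WT, 20.6 and 22.7 in AAB and 17.8 and 17.1 in BBA with IL-15, above WT in the first and below it in the second (difference -2.10 ± 0.22 in BBA, adjusted p = 0.00538, and -1.55 ± 0.21 in AAB, adjusted p = 0.0366). Igtp was higher in BBA without cytokine (0.85, adjusted p = 0.0482), with a difference of -1.60 ± 0.26 between cultures (adjusted p = 0.016).

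**Figure D5:**
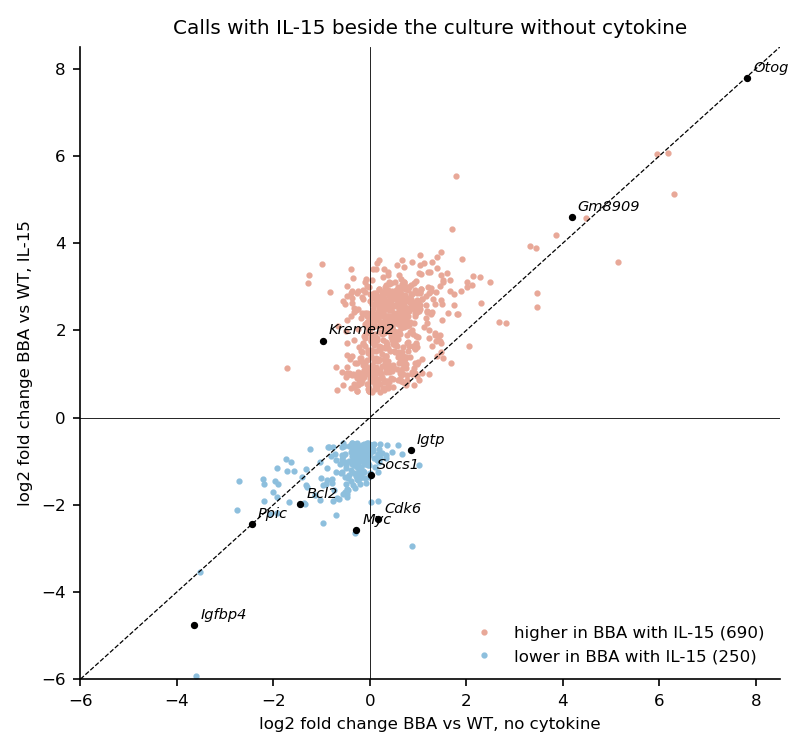
Log2 fold change of BBA against WT with IL-15 (vertical axis) and without cytokine (horizontal axis) for the genes called with IL-15. Colours separate genes higher and lower in BBA with IL-15, and several genes are named. Igfbp4 and Gm8909 lie near the diagonal, while Myc lies near 0 without cytokine and at a log2 fold change below -2 with IL-15.

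Central memory CD8+ T cells (Tcm, CD44 high CD62L high) with IL-15 gave a comparison in 6 further libraries fitted on their own. Of the genes higher in BBA Tnv that were tested in both, 439 of 516 (85.1%) were higher in BBA Tcm, where 11.7% of all genes were higher. They made up 38.9% of the 1129 higher genes there. Of the lower genes 220 of 247 (89.1%) were lower in Tcm, where 11.4% of all genes were lower. These made up 19.9% of 1103. For AAB it was 25 of 47 higher genes (53.2%) and 35 of 39 lower genes (89.7%), where 1.61% of all genes were higher and 2.53% lower. This made 60 of 86 in all, or 36 of 52 without WT replicate 2. The same-numbered libraries of Tnv and Tcm may come from the same mice, which the labels do not say.

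Bcl2, Myc and Cish were lower in both mutant genotypes in Tcm. Bcl2 stood at 1105 and 989.5 CPM in WT, 684 and 658 in AAB and 319 and 278 in BBA in Tcm (-1.81 ± 0.11 in BBA, adjusted p = 0.000122; -0.64 ± 0.11 in AAB, adjusted p = 0.0193), and Myc at 389 and 445 in WT, 146 and 176 in AAB and 72.5 and 89.7 in BBA (-2.36 ± 0.15 and -1.37 ± 0.14). Cish stood at 62.7 and 51.1 in WT, 26.8 and 25.5 in AAB and 6.42 and 4.32 in BBA, and fell in both (-3.42 in BBA and -1.12 in AAB, adjusted p = 0.000115 and 0.0142). Gzmb, not tested in Tnv, stood at 28.1 and 21.6 in WT, 1.47 and 1.62 in AAB and 3.21 and 0.815 in BBA and Il2rb, level in Tnv, at 1287 and 1223 in WT, 987 and 1059 in AAB and 525 and 509.9 in BBA in Tcm, both lower in BBA (adjusted p = 0.0015 and 0.000195). Eomes, higher in BBA Tnv, stood at 256 and 282 in WT, 270.1 and 272 in AAB and 266 and 272 in BBA in Tcm, where BBA and WT differed by less than the SE of 0.09 (adjusted p = 1). Smc6 fell in BBA Tcm as well (-1.60 ± 0.10) and Capn11 was higher in AAB Tcm (4.45 ± 0.44). The differences between Tnv and Tcm were not tested.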

How the data were processed

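RNA from sorted CD8+ T cells was sequenced as single reads, and the authors deposited 1 table of raw counts per gene for all CD8+ libraries. The submitters' processing notes name TopHat2, Cufflinks, HTSeq and mm9, while the study's methods give mm10; the annotation and the strand setting of the counting are not given in the sources used here, so reads of paralogs, pseudogenes and overlapping or antisense genes may be divided or merged. The table holds no coordinates, and positions come from a GRCm38 annotation by symbol. Genotypes come from the labels. The members and gene lists were chosen with earlier results of these data known.

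From the counts, genes were kept by the Jaccard rule of HTSFilter, re-implemented here (100 thresholds from 1 to 200, loess span 0.3): at least 1 library had to exceed a normalised count of 87.4 in the 6 libraries, or 89.4 in the 12 of the comparison with and without cytokine. edgeR 4.0.16 in R 4.3.3 gave TMM factors on the kept genes and quasi-likelihood tests with 1 term per genotype over all 6 libraries; SE is the standard error of the log2 fold change. A gene was called at a Benjamini-Hochberg adjusted p under 0.05 and above 1.5-fold. CPM values are counts scaled to a common total by the TMM-normalised sum of kept genes. Named genes were Stat5a, Stat5b and 14 cytokine response genes; in each comparison up to 8 calls per direction with the largest change, a mean of at least 50 normalised counts and no overlap between genotypes; up to 4 calls of each list by adjusted p in BBA; and 3 per direction of each comparison between cultures. Csf1r, Lyz2, Cst3, Prf1, Nkg7, Nip7 and Tyms were named after their values were seen.

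Replicates of each genotype differed beyond counting noise (chi-square per degree of freedom 46.9, 23.9 and 33.0), so all were counted as separate. Deviations from the genotype mean, compared between libraries with the same number, correlated at 0.320 (WT and AAB), 0.115 (WT and BBA) and 0.235 (AAB and BBA). All lay above the limit of 0.1 set for pairing, so by this check, and not by the labels, the numbers may pair libraries. The main tests held no term for such pairs, and the replicate block is given as an alternative. Intervals of shares are exact binomial ones at 95% and cover counting error only. Alternatives were DESeq2 1.42.0, other filters, scaling, thinning to the smallest total, the replicate block, a fit over 48 CD8+ libraries and leaving out each library; scaling from all genes and the subtraction of reads were chosen after seeing the data. The test of BBA against WT and that of the BBA difference between cultures were tried on simulated counts with known changes. The simulation gave all genes the same spread and changed only well-counted genes, so it does not cover calls at low level. CD4+ T cell libraries were not used here. Promoter windows of 8056 of the 9971 tested genes (80.8%) were matched by symbol to RefSeq. scipy 1.17.1 and matplotlib 3.10.9 in Python 3.11.15 served for intervals and figures.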

Additional observations from a re-analysis of the deposited data

Results flagged for a closer look

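Effects of genotype that differed between Tnv with IL-15 and Tnv without cytokine were found for 251 genes in BBA and 33 in AAB (edgeR quasi-likelihood test of the difference itself, 12 libraries). As stated above, IL-15 and time in culture cannot be told apart here. The 33 in AAB became 0 without WT replicate 2 of the IL-15 culture (985 at an unadjusted p under 0.05; 126 by DESeq2 with all libraries). The adjusted p of the 6 genes named for AAB then lay between 0.053 and 0.066.

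In BBA the largest differences upward were those of Cdh1, Ank2 and Hpgds. Cdh1, which encodes E-cadherin, stood at 20.8 and 16.05 CPM in WT, 8.88 and 4.91 in AAB and 4.10 and 1.71 in BBA without cytokine and at 3.17 and 1.80 in WT, 2.60 and 3.18 in AAB and 5.48 and 4.203 in BBA with IL-15, so that WT fell with IL-15 while BBA did not pass, and the difference was 3.69 ± 0.66 on the log2 scale (SE, adjusted p = 0.0215). Its level with IL-15 was under the filter of the 6-library fit. Ank2, an ankyrin that anchors membrane proteins, stood at 0.815 and 0.732 in WT, 0.735 and 0.711 in AAB and 0.820 and 0.854 in BBA without cytokine and at 0.974 and 1.86 in WT, 6.51 and 6.63 in AAB and 17.6 and 12.97 in BBA with it (difference 3.28 ± 0.58, adjusted p = 0.0215). Hpgds, the haematopoietic prostaglandin D synthase, stood at 2.52 and 2.93 in WT, 1.54 and 2.20 in AAB and 1.74 and 2.39 in BBA, and then at 2.92 and 3.41 in WT, 12.9 and 11.02 in AAB and 30.1 and 17.3 in BBA (difference 3.27 ± 0.47, adjusted p = 0.00906). Ank2 and Hpgds rose with IL-15 in both mutant genotypes. Without cytokine Ank2 stood under 1 CPM in every library, and Hpgds was lower in the 4 mutant libraries than in either WT library.

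Downward, Cdk6 rose with IL-15 in WT, from 14.2 and 12.2 to 57.5 and 37.7 CPM, and stood at 10.96 and 18.4 without and 8.71 and 10.1 with IL-15 in BBA (difference -2.51 ± 0.50, adjusted p = 0.0305). Ecm1 moved from 10.7 and 10.2 to 34.02 and 68.8 CPM in WT and from 6.97 and 9.79 to 7.03 and 9.37 in BBA (difference -2.34 ± 0.45, adjusted p = 0.0288). For Myc the difference was -2.30, at the levels given above.

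In AAB the genes were Kremen2 (2.12 ± 0.35), Nmrk1 (1.69 ± 0.25) and A430088P11Rik (1.42 ± 0.23) upward and Gm12250 (-1.55 ± 0.21), Osm (-1.52 ± 0.20) and Atp10a (-1.45 ± 0.16) downward, with adjusted p from 0.035 to 0.0437. Kremen2, a receptor that restrains Wnt signals, stood at 7.86 and 7.43 CPM in WT, 3.87 and 3.56 in AAB and 3.995 and 3.76 in BBA without cytokine and at 8.04 and 10.1 in WT, 21.2 and 17.3 in AAB and 38.5 and 23.5 in BBA with IL-15. The WT response did not pass and both mutants rose. Nmrk1, a kinase of the NAD salvage route, stood at 6.89 and 8.22 in WT, 7.15 and 6.60 in AAB and 9.22 and 10.5 in BBA, and then at 7.47 and 8.02 in WT, 24.6 and 20.8 in AAB and 39.9 and 33.4 in BBA, and A430088P11Rik is an antisense RNA whose reads may belong to the opposite strand. Osm stood at 19.3 and 19.4 in WT, 21.4 and 20.7 in AAB and 21.8 and 17.6 in BBA without cytokine and at 27.7 and 29.3 in WT, 10.4 and 11.3 in AAB and 8.01 and 6.97 in BBA with it, close together in the first culture and lower in both mutants in the second.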

How the results depend on the processing

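Of 1800 alternative values of the 108 named gene comparisons, 1495 kept direction and side of the threshold, and 0 called values changed sign. In BBA against WT, 940 calls became 3730 with filterByExpr, 4936 with no filter, 26 by Bonferroni adjustment, 1764 with scaling from all genes and 544 to 939 without 1 library. In AAB against WT, 89 became 437, 1289, 2 and 365 under the same 4 settings, 518 with DESeq2, 177 in the fit over 48 libraries (23 higher and 154 lower), 288 with the replicate block and 0 to 176 without 1 library. AAB against BBA gave 7, then 16, 106, 3 and 25, 65 with DESeq2, 15 with the block and 0 to 42 without 1 library. Of 618 listed genes, 61 calls in BBA became 148 with filterByExpr, 205 with no filter, 1 by Bonferroni, 39 above 2-fold, 94 with the replicate block, 39 to 67 without 1 library and 157 with scaling from all genes. In AAB 15 became 39, 86, 1, 9, 47, 0 to 21 and 39 in that order, 50 with DESeq2, 43 over 48 libraries and 9 after thinning. The differences between cultures gave 251 genes in BBA (717 with no filter, 627 with DESeq2, 650 with the replicate block within each culture) and 33 in AAB (119, 126 and 116, and 0 without WT replicate 2). The genes shared with Tcm were 659 in BBA (3375 with no filter, 439 above 2-fold) and 60 in AAB (429, 32, and 36 of 52 tested without WT replicate 2). The promoter share of genes lower in AAB moved from 3.03% to 0% without WT replicate 2, a check that is void since windows were matched for 75% of that set. Named calls were lost in 37 and 36 cases without AAB replicates 1 and 2, 28 and 18 without BBA replicates 1 and 2, and 13 and 20 without WT replicates 1 and 2, which is the limit that 2 libraries a genotype set; the replicate block lost 0 and added 4. The cause of these changes was not tested.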

Other observations

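Csf1r, the receptor of macrophage growth factor, stood at 0.844 and 0.876 CPM in WT, 1.69 and 4.17 in AAB and 12.2 and 10.2 in BBA, and was called higher in BBA (adjusted p = 0.00871). It was the 1 called member of the 3 tested myeloid markers. Cst3, encoding cystatin C and the most abundant of them in WT, stood at 47.9 and 45.8 CPM in WT, 43.9 and 39.02 in AAB and 51.4 and 36.4 in BBA (-0.10 in BBA, not called). Lyz2, which encodes lysozyme, stood at 2.79 and 6.88 CPM in WT, 5.26 and 23.8 in AAB and 55.99 and 20.3 in BBA. Csf1r and Lyz2 were highest in BBA replicate 1.

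Within each genotype the libraries with IL-15 differed from those without cytokine in 661 genes in WT, 1648 in AAB and 2097 in BBA (edgeR quasi-likelihood test, 12 libraries). Time in culture may enter these differences, and the counts were not tested against each other.

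Of 807 tested genes on chromosome 11, which carries both Stat5 genes, 35 were lower in BBA (4.34%) and 42 higher (5.20%), against 2.53% and 6.80% of the 9583 genes with a position. Within 10 Mb of the Stat5 genes, 9 of 184 were lower (4.89%) and 8 higher (4.35%). Stat5a and Stat5b, both called lower in BBA, are themselves among these 9 and among the 35.

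Otog stood at 0.819 and 1.43 CPM in WT, 2.33 and 174 in AAB and 469.9 and 193 in BBA in Tcm with IL-15 and at 0.964 and 1.35 in WT, 0.534 and 247 in AAB and 383 and 155 in BBA in Tnv without cytokine, so that in all 3 conditions AAB replicate 1 lay near WT and AAB replicate 2 near BBA.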
